A study of Mus musculus with 2 samples.

Results

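The interferon regulatory factors are a family of transcription factors that share a DNA-binding domain and recognise GAAA repeats in the promoters of interferon and interferon-stimulated genes. Some members, such as IRF3, are made at all times and wait for phosphorylation by kinases below nucleic acid sensors, whereas others are themselves products of interferon signaling, which acts on promoters through gamma-activated sites (GAS) and, where IRF9 binds DNA within the complex ISGF3, through interferon-stimulated response elements (ISRE). IRF4, IRF5 and IRF8 are known mainly from lymphoid and myeloid cells. The 8 members described here, Irf1, Irf2, Irf3, Irf4, Irf5, Irf7, Irf8 and Irf9, were chosen by name out of 22909 genes matched to the arrays, and all probes whose RefSeq accession belongs to 1 of them were taken, which gave 13 probes.

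RNA of whole colon of C57BL/6 mice, 8 weeks old by the methods, was hybridized to 2 one-colour Agilent mouse arrays, 1 for each genotype. Both genotypes carried Villin-Cre, a Cre recombinase driven in the intestinal epithelium by the promoter of the microvillus protein villin. The control carried Villin-Cre alone, and the other (EP4 cKO) was Villin-Cre; EP4flox/flox, in which epithelial cells lose the floxed stretch of Ptger4, which encodes the prostaglandin E2 receptor EP4, while stromal and immune cells keep it. The labels describe each RNA as combined from 3 pools of colon, while the methods give 3 samples per genotype, and how the 3 relate to the single array of a genotype was not settled by either. With 1 value per genotype no test between genotypes could be made, and all differences describe these 2 arrays only. The comparison addresses how gene expression of the unchallenged colon differs when its epithelium lacks EP4.

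Values are processed spot intensities, scaled on each array to a trimmed mean of 2500 as in the methods of the study, and are called normalized signals here. The error given with a signal is the scanner software's own error for that spot, and the error of a log2 ratio (EP4 cKO over Villin-Cre) was propagated from the errors of both spots. It was between 0.20 and 0.22 for the member probes and covers the spot, not the mice. A probe was used where the scanner marked it as well above background on at least 1 array, and a gene is represented by its brightest such probe. Where only 1 of the arrays had a probe well above background, the dim side was held at no less than the lowest signal well above background of that array (125 on the Villin-Cre array, 57.8 on the EP4 cKO array), and the fold is then a bound. Of the 22909 genes, 14679 had a value, with a median log2 ratio of -0.10, and on the EP4 cKO-labelled array 4.88% of them were higher and 7.98% lower by over 2-fold. Of the genes past 2-fold, 38% were higher, a share that was 50.6% with scaling to the 75th percentile, 48.6% with a trimmed mean over all spots, 59.2% after normexp with quantile normalization, 61.1% after loess, 13.9% with no filter on dim probes and 94.8% with scaling to the E1A control spots.

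Ptger4 itself could not test the labels, since stromal and immune cells of whole colon keep it. Neither probe of the gene was clearly lower on the EP4 cKO array. Its brighter probe had normalized signals of 6227 ± 624 (Villin-Cre) and 5661 ± 566 (EP4 cKO), a log2 ratio of -0.14 ± 0.20. Its dimmer probe had 393 ± 49.4 and 592 ± 60.8, which is 1.51-fold higher with EP4 cKO (log2 ratio 0.59 ± 0.23). Where these probes lie relative to the deleted part is not given in the sources used here, and all directions below rest on the labels of the arrays. Of the cell type markers set by hand, all 10 of the epithelium were well above background on both arrays, with summed normalized signals of 1872784 and 2453795. Much of the difference of these sums came from Krt20 (146575 and 510711, 3.48-fold), whereas Car1, Cdx2, Cdh1 and Cdx1 had ratios below 0 on the log2 scale. Markers of other cell types of whole colon were detected in part. Those of fibroblasts differed most, with summed signals of 13114 (Villin-Cre) and 302 (EP4 cKO). Of these 6, 5 were more than 2-fold lower with EP4 cKO, against 7.98% of all genes. Their part in the ratios of the members was not tested. Of the smooth muscle markers, Acta2 (18006 and 27719), Actg2 (7308 and 12072) and Tagln (4224 and 5490) were well above background on both arrays and Myh11 on neither, and the probes of Acta2 had opposite signs (log2 ratios of -0.58 and 0.62). Cnn1, also detected on both, had 479 and 72.3 (6.62-fold lower with EP4 cKO). Of the endothelial ones, Vwf (873 and 914) and Pecam1 (172 and 152) were, while Kdr, Cdh5 and Tek were on neither. Of the neuron and glia markers, Uchl1 had 1877 and 699 (2.69-fold lower). In bulk RNA, fewer cells of a type and less RNA per cell cannot be told apart.

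The upstream stretches of 5 members are shown first, because the factors with the largest ratios are known products of interferon signaling and these are the stretches in which its elements would be sought. All 8 members matched a RefSeq promoter entry (build GRCm38.p6), with 11 start sites. The 250 bases before each start were searched on both strands for the ISRE core (GAAA, any 2 bases, GAAA) and for the GAS letters TTCNNNGAA, which read the same on both strands. The ISRE core was present in 2.98% and the GAS letters in 7.02% of the 32851 upstream windows of the genome's promoter entries. Capitals mark the matches, and each stretch ends at the base before the outermost annotated start of the gene. For Irf7 this leaves 175 of the 250 bases, because the window belongs to a start inside the gene.
Irf1 (chr11:53769764-53770013, plus strand, 5′ to 3′): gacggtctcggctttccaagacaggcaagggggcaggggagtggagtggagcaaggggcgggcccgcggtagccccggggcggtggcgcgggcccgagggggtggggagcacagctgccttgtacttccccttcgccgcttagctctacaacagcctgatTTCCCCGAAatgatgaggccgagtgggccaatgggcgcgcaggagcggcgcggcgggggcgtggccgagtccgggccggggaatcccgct
Irf8 (chr8:120736108-120736357, plus strand, 5′ to 3′): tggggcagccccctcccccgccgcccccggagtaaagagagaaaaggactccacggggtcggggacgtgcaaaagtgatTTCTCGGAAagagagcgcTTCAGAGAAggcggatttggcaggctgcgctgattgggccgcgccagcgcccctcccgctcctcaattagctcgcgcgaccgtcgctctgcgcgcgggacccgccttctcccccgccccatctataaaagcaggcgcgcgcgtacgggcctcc
Irf2 (chr8:46739495-46739744, plus strand, 5′ to 3′): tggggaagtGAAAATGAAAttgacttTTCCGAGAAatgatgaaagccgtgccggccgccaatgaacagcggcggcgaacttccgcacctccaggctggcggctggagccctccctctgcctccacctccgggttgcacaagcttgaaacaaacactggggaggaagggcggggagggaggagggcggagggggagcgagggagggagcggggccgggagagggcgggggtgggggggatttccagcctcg
Irf7 (chr7:141266500-141266674, minus strand, 5′ to 3′): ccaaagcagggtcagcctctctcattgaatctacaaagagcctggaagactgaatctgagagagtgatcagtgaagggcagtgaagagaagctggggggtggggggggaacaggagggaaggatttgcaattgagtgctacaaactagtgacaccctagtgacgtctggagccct
Irf9 (chr14:55603735-55603984, plus strand, 5′ to 3′): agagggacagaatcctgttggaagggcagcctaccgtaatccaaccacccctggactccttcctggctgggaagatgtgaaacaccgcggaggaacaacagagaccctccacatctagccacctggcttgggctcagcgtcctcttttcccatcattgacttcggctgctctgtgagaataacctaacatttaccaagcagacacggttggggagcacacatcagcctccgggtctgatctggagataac
Irf1 held 1 GAS match, TTCCCCGAA, from 90 to 82 bases before its start. Irf8 held 2, TTCTCGGAA from 171 to 163 and TTCAGAGAA from 153 to 145 bases before its start. Irf2 held the only ISRE core among the members, GAAAATGAAA from 241 to 232 bases before its start, and the GAS match TTCCGAGAA from 224 to 216. The first 21 bases of the Irf2 stretch overlap the annotated gene Gm16675. No match to these letters was found in the 250-base windows of Irf7 and Irf9, nor in those of Irf3, Irf4 and Irf5. A match is a description of letters, and binding was not measured.

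Of the 8 members, 6 were measured on both arrays, 1 (Irf5) on the array labelled EP4 cKO only and 1 (Irf4) on neither. Irf7, Irf9 and Irf1 passed 2-fold towards the array labelled EP4 cKO, against 4.88% of all genes, and no member was more than 2-fold lower, against 7.98%. Irf8 was 1.51-fold higher, and Irf2 and Irf3 lay within 1.28-fold. The median log2 ratio of the 7 members with a value was 0.59, and that of the 6 measured on both arrays was 0.97, against -0.10 for all genes with a value and -0.15 for all genes measured on both. The members were thus spread over more than 3 log2 units, from the interferon-inducible Irf7 to the constitutive Irf3.

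**Figure D1:**
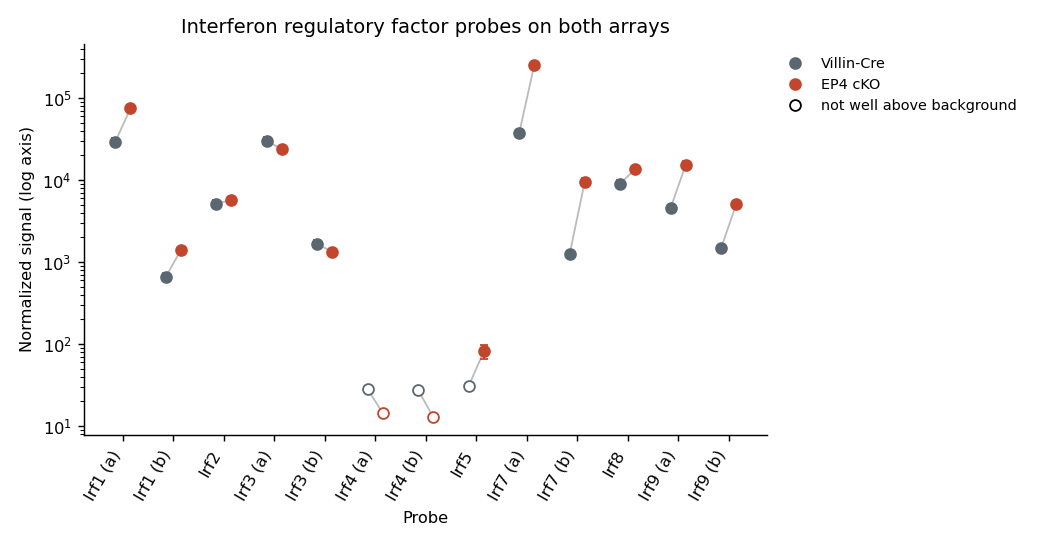
Normalized signal (log axis) of all 13 probes of the 8 members on the Villin-Cre array (grey) and the EP4 cKO array (red), 1 spot per probe and array. Error bars are the scanner's error of the spot, open circles were not well above background, and a and b are the brighter and dimmer probe of a gene. Both probes of Irf1, Irf7 and Irf9 are higher on the EP4 cKO array, while both probes of Irf4 are open circles on both arrays.

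Irf7, the factor that amplifies the type I interferon response and is itself induced by ISGF3, had the largest ratio of the family. Its brighter probe had a normalized signal of 37247 ± 3725 with Villin-Cre and 252885 ± 25289 with EP4 cKO. This is a 6.79-fold difference, with a log2 ratio of 2.76 ± 0.20. Its second probe went the same way, from 1247 ± 128 to 9609 ± 961 (7.70-fold, log2 ratio 2.95 ± 0.21). Among all 14679 genes with a value Irf7 was number 117 from the highest ratio. Among the 1281 genes in the brightest of 10 equal signal classes, where the median log2 ratio was -0.02, it was number 13.

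Irf9, the DNA-binding subunit of ISGF3, came next. A probe for 1 of its transcripts had a normalized signal of 4563 ± 457 with Villin-Cre and 15348 ± 1535 with EP4 cKO (3.36-fold, log2 ratio 1.75 ± 0.20). A probe made from another of its RefSeq transcripts had 1483 ± 152 and 5062 ± 506, which gives 3.41-fold and a log2 ratio of 1.77 ± 0.21. The 2 probes thus gave the same ratio within their errors. By its brighter probe Irf9 was number 267 of all genes with a value and number 19 of the 1281 genes in its signal class.

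Irf1, induced by interferon-gamma and an activator of antigen presentation genes, was the last member past 2-fold. Its brighter probe had 29301 ± 2930 with Villin-Cre and 74994 ± 7499 with EP4 cKO, a 2.56-fold difference with a log2 ratio of 1.36 ± 0.20. Its dimmer probe had 660 ± 73.1 and 1404 ± 141 (2.13-fold, log2 ratio 1.09 ± 0.22), and the error of this ratio reached below 2-fold. Irf1 was number 445 of all genes with a value and number 41 of the 1281 genes of the brightest class. Its stretch shown above holds the GAS match nearest to a start among the members, whereas Irf7 and Irf9, with larger ratios, held no match in theirs.

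**Figure D2:**
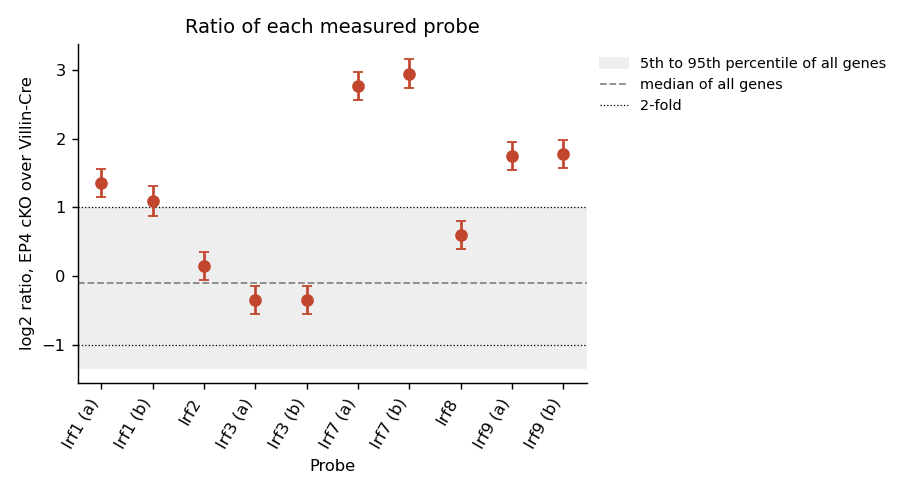
log2 ratio (EP4 cKO over Villin-Cre) of the 10 member probes measured on both arrays, with the error propagated from the scanner's errors of both spots. The grey band spans the 5th to 95th percentile of all genes with a value, the dashed line is their median, and dotted lines mark 2-fold. All probes of Irf1, Irf7 and Irf9 lie above the upper 2-fold line, and the probes of 1 gene overlap within their error bars.

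Irf8, a factor of monocyte and dendritic cell development that is also inducible by interferon-gamma, had a normalized signal of 9044 ± 905 with Villin-Cre and 13623 ± 1362 with EP4 cKO (log2 ratio 0.59 ± 0.20, 1 probe). It was within 2-fold, and number 115 of the 1281 genes in its signal class. Irf2, known as a competitor of IRF1 at the same elements, had 5173 ± 518 and 5716 ± 572 (log2 ratio 0.14 ± 0.20, 1 probe). The difference in Irf2 was smaller than the scanner's error, although its upstream stretch held both kinds of match.

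Irf3, the constitutive factor that is phosphorylated by TBK1, was the only measured member with a lower signal on the array labelled EP4 cKO. Its brighter probe had 30295 ± 3030 and 23731 ± 2373 (log2 ratio -0.35 ± 0.20), and its dimmer probe had 1678 ± 170 and 1317 ± 132 (log2 ratio -0.35 ± 0.21). The 1.28-fold difference depends on the scaling, since the deposited intensities of the brighter probe before scaling were 8777 and 8841. The log2 ratio was -0.20 with scaling to the 75th percentile and 0.71 with scaling to the E1A control spots, where the sign turned.

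The remaining members were at the detection limit. Irf5, which acts below Toll-like receptors in macrophages, had 30.6 ± 30.8 on the Villin-Cre array, not well above background, and 81.2 ± 15.9 on the EP4 cKO array, well above it. As the latter lies under the lowest signal well above background of the Villin-Cre array, no fold can be given. Irf4, a factor of plasma cells, activated T cells and dendritic cells, had 2 probes, with 28.0 and 14.3 for the first and 27.5 and 12.8 for the second on the Villin-Cre and EP4 cKO arrays. None of these signals was well above background, and a level below the detection of the arrays is not an absence of the transcript.

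In order of their ratios the measured members were Irf7, Irf9, Irf1, Irf8, Irf2 and Irf3. The smallest gap between neighbours, 0.39 on the log2 scale between Irf9 and Irf1, exceeded the combined scanner error of 0.29, as did the other gaps (0.45 to 1.01). Without replicate arrays it is not known whether neighbours differ beyond the spread between mice. This order was the same under all alternatives of the processing that were run.

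**Figure D3:**
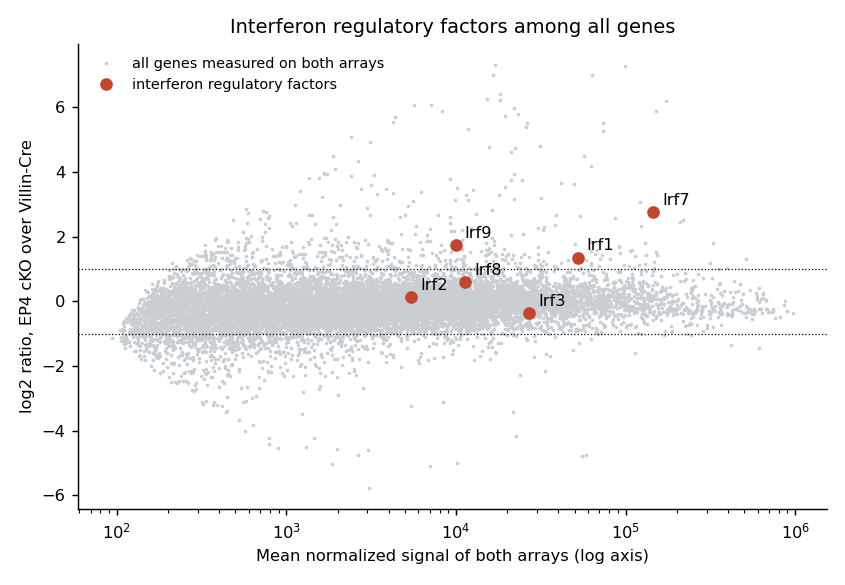
log2 ratio (EP4 cKO over Villin-Cre) against the mean normalized signal of both arrays (log axis) for each gene measured on both arrays, with the 6 measured interferon regulatory factors in red and dotted lines at 2-fold. Irf7, Irf9 and Irf1 lie above the bulk of genes of like signal, whereas Irf2 and Irf3 lie inside it.

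Sensors, adaptors and kinases that activate IRF3, IRF5 and IRF7 were described by a list of 23 genes, of which 22 had a value. Of these, 5 passed 2-fold towards the array labelled EP4 cKO and 1 passed it towards Villin-Cre, against 4.88% and 7.98% of all genes, and the median log2 ratio was 0.15. The RNA sensors of the RIG-I family stood at the top of the list. Dhx58 had a normalized signal of 649 with Villin-Cre and 3004 with EP4 cKO (log2 ratio 2.21). Ddx58, the gene of RIG-I, had 2124 and 5820 (log2 ratio 1.45), although 1 of its 3 detected probes gave no fold above 1, and Ifih1, the gene of MDA5, had 5346 and 13083 (log2 ratio 1.29). Tbk1, the kinase of IRF3, had 771 and 1788 (log2 ratio 1.21). Tlr3, an endosomal sensor of double-stranded RNA, had 182 and 395 (log2 ratio 1.12), while its second probe had a log2 ratio of 0.60. With the probes of each gene averaged, 4 genes of this list passed 2-fold towards EP4 cKO. The adaptors Mavs (-0.43), Myd88 (-0.15) and Sting1 (0.28) and the kinase Ikbke (-0.23) had log2 ratios within 2-fold.

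The lower gene was Tlr7, an endosomal sensor of single-stranded RNA that signals to IRF7 and IRF5 in immune cells. Its brightest probe had 2183 on the Villin-Cre array and 14.3, not well above background, on the EP4 cKO array, at least 37.7-fold lower. A second probe of Tlr7 was also lower, by a log2 ratio of -0.76. The fibroblast markers were lower as well, 5 of 6 by more than 2-fold (Dcn, Col1a2, and as bounds Col1a1, Col3a1 and Lum), against 7.98% of all genes, and their summed signal was 13114 with Villin-Cre and 302 with EP4 cKO. Their part in the value of Tlr7 was not tested.

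Above the inducible members lie the interferons, their receptors and the JAK-STAT genes, a list of 16 with 14 values, of which 2 passed 2-fold towards EP4 cKO and 1 towards Villin-Cre (4.88% and 7.98% of all genes), with a median log2 ratio of 0.26. Stat2, whose product joins IRF9 in ISGF3, had a normalized signal of 2877 with Villin-Cre and 10562 with EP4 cKO (log2 ratio 1.88, while its dimmer probe gave no fold above 1). The mean of all its probes is therefore lower, and with probes averaged 1 gene of the list passed 2-fold towards EP4 cKO. The other was Ifnl3, a type III interferon, with 281 and 710 (log2 ratio 1.34). Of the type I interferons, Ifnb1 was lower on the array labelled EP4 cKO, with 181 on the Villin-Cre array and a signal not well above background on the other (at least 3.14-fold lower), and Ifna4 was well above background on neither array. Ifnk was well above background with EP4 cKO alone (94.0 and 102), and no fold can be given for it. Ifng, the type II interferon, had 149 and 177, close to the floor of 125, a log2 ratio of 0.25. The receptor genes lay within 2-fold, with log2 ratios of 0.26 for Ifngr1, 0.36 for Ifngr2, 0.45 for Ifnlr1 and -0.55 for Ifnar1, whose 3 probes ran from -0.55 to 0.29.

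Partners and regulators of the factors formed a list of 15 genes with 12 values. None passed 2-fold either way, which at 12 genes is near the shares of all genes (4.88% and 7.98%), and the median log2 ratio was 0.14. The largest ratio was that of Trim21, a ubiquitin ligase that acts on several members of the family (1454 and 2516, log2 ratio 0.79), and the lowest that of the corepressor Irf2bp2 (18034 and 12173, log2 ratio -0.57). Spi1 (PU.1) and Batf3, which bind DNA together with IRF4 and IRF8 in immune cells, were well above background on neither array.

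**Figure D4:**
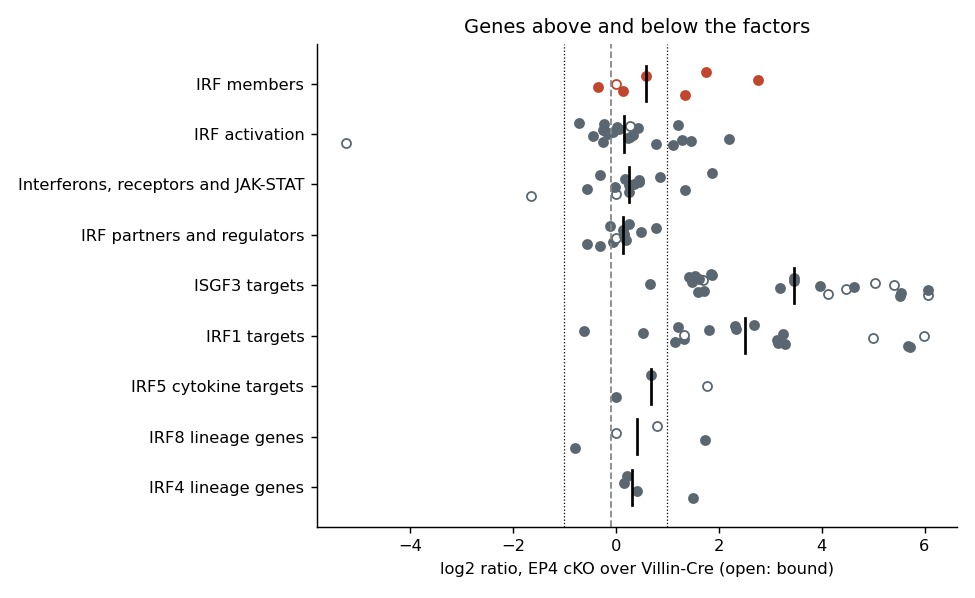
log2 ratio (EP4 cKO over Villin-Cre) of each gene with a value, by list, with the family in red. Open circles are bounds, black ticks are list medians, the dashed line is the median of all genes and dotted lines mark 2-fold. The ISGF3 and IRF1 targets lie mostly to the right of the upper 2-fold line, while the lists above the factors and their partners lie mostly within 2-fold.

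The 2 target lists stood farthest to the higher side. Of 25 genes known as targets of ISGF3, 23 had a value and 22 passed 2-fold towards the array labelled EP4 cKO, against 4.88% of all genes, with a median log2 ratio of 3.46 (1.87 over the 17 measured on both arrays). The exception was Eif2ak2, the gene of PKR, with 2397 and 3812 (log2 ratio 0.67). The largest measured ratios were those of Oas2 (6.07), Ifit3 (5.55), Isg15 (5.53) and Oasl2 (4.63). The Villin-Cre signals of Oas2 (208) and Ifit3 (177) were close to the floor of 125, unlike those of Isg15 (3118) and Oasl2 (1639). Of the 2 probes of Oas2, 1 had a value. The ISRE core was present upstream of 8 of the 19 genes of this list with a promoter entry (40% of 20 windows, against 2.98% of all windows), among them Ifit3 and Isg15.

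Of 18 interferon-gamma genes known to need IRF1, all had a value, 16 passed 2-fold towards EP4 cKO and none towards Villin-Cre, against 4.88% and 7.98% of all genes, with a median log2 ratio of 2.51. The guanylate-binding proteins Gbp2 (5.73) and Gbp3 (5.69) led the measured ones, followed by the immunoproteasome subunit Psmb8 (3.29) and the chemokine Cxcl10 (3.24). The Villin-Cre signal of Gbp3 (165) was close to the floor of 125, and that of Gbp2 was 720. The 2 genes within 2-fold were Casp1 (log2 ratio 0.53) and Il15, which had 9468 and 6180 (log2 ratio -0.62, and -0.30 for its second probe). Thus Il15 stood on the other side of 0 from the rest of the measured IRF1 targets. The ISRE core was present upstream of 5 of the 13 genes with a promoter entry (33.3% of 15 windows). The target lists were set by hand from general knowledge, but with earlier results of these arrays known. Their counts beside the share of all genes are therefore a description and not a test. Their genes respond to several factors at once. Many of them also appear in lists examined earlier on these arrays, so that the counts are not independent of those.

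Genes linked to the members of immune cells gave few values. Of 7 cytokine genes known as targets of IRF5, 3 had a value, and only Il1b was more than 2-fold higher (4.88% of all genes were), as a bound of at least 3.44-fold, whereas Tnf had 472 and 477 with its brighter probe and a log2 ratio of 1.07 with its second. Il6, Il12a, Il12b and Il23a were well above background on neither array. Of 8 genes of the IRF8-dependent monocyte and dendritic cell lineages, 4 had a value and 1 passed 2-fold towards EP4 cKO. Itgax, the gene of CD11c, was higher (152 and 505, log2 ratio 1.73), and Csf1r, the receptor of macrophage colony-stimulating factor, had 4874 and 2817 (log2 ratio -0.79, and -0.34 for its second probe). Of 7 plasma cell genes, 4 had a value and 1 passed 2-fold towards EP4 cKO. With so few genes, 1 call in a list of this size is not set apart from the share of all genes. Prdm1, which is also active in intestinal epithelium, had 186 and 527 (2.84-fold), while Jchain (0.21) and Sdc1 (0.16, with its 3 probes between -0.33 and 0.16) lay within 2-fold.

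Markers of the cells in which Irf8, Irf5 and Irf4 are best known were set beside these values. Of 10 markers of macrophages and monocytes, 8 had a value, 2 passed 2-fold towards EP4 cKO (Mrc1 and Cx3cr1, both as bounds) and none towards Villin-Cre, against 4.88% and 7.98% of all genes. Their summed normalized signal was 63781 with Villin-Cre and 88734 with EP4 cKO, most of it from Itgam (49347 and 68598), with Cd14 at 8483 and 15583. The second probe of Itgam gave no fold above 1. Of the 5 measured on both arrays, Csf1r (log2 ratio -0.79) and Cd68 (-0.09) went the other way, while Adgre1 and Lyz2 were detected on neither array. Of 6 dendritic cell markers, 3 had a value and Xcr1, Clec9a and Flt3 were well above background on neither array. Their summed signal was 239125 and 213687, nearly all of it from the single gene Siglech (log2 ratio -0.16), while Itgax (log2 ratio 1.73) was the only 1 of the 3 past 2-fold. Siglech and Itgax have 2 probes each, and the second of each was well above background on neither array. The sum thus rests on 1 probe of Siglech and is not a measure of dendritic cells. The summed signal of 8 T and NK cell markers with a probe was 13199 and 13844. It rested mostly on Cd4 and Cd3e, the probes of Cd4 (-1.31 and 0.18) and of Cd3d (-0.79 and 0.90) had log2 ratios of opposite sign, and Cd3g was 2.42-fold higher. The summed signal of 8 B and plasma cell markers was 7732 and 8686, nearly all of it from Sdc1 (7296 and 8163), with Ms4a1, Cd79a, Mzb1 and Tnfrsf17 well above background on neither array. The mast cell markers had summed signals of 2915 and 13600. Of these 5, Mcpt1, Mcpt2 and Cpa3 were more than 2-fold higher, all as bounds, Tpsb2 had no fold, and Kit, the only one measured on both arrays and most of the Villin-Cre sum, had 2615 and 1604 (log2 ratio -0.71). The part of these cells in the ratios of Irf8 and the other members was not tested.

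**Figure D5:**
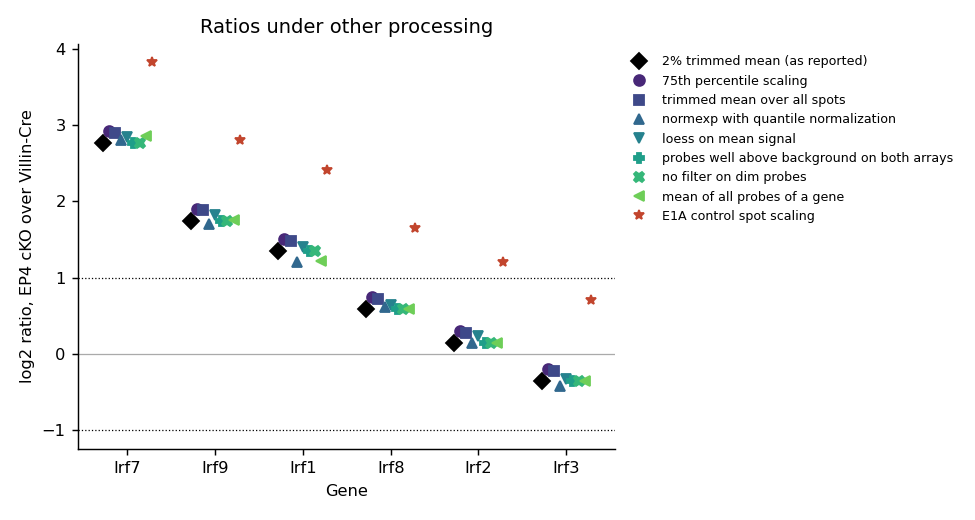
log2 ratio (EP4 cKO over Villin-Cre) of the 6 members measured on both arrays as reported (black diamonds) and under 8 alternatives of the processing, with dotted lines at 2-fold. The alternatives other than E1A lie close together at each gene, and scaling to the E1A control spots (red stars) lies higher for every gene, which takes Irf8 and Irf2 past 2-fold and turns the sign of Irf3.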

How the data were processed

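The members and gene lists were chosen with earlier results of these data known. Genotypes were taken from the sample labels. The authors deposited spot intensities of Cy3-labelled RNA as the scanner software wrote them (Agilent Feature Extraction 12.0.3.1 by the file headers, 11.5.1.1 by the submitters' processing notes), with background subtracted and spatial trends removed. Their scaling is not in these intensities and was repeated here. The deposited flags, 0 or 1 with no other score or unit, were used as given.

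Control spots were left out, as were spots with an outlier flag on 1 or both arrays, the spots of a probe were averaged, and a probe counted as well above background where at least 50% of its spots did. Each array was scaled to a trimmed mean of 2500 without 2% of the 56593 probes at each end (multiplied by 3.45 on the Villin-Cre array, 2.68 on the other). Of the probes, 45.4% and 51.6% were well above background, and no spot was saturated. Over 163 probes with 10 spots the median SD of the log2 ratio was 0.034. Signal over background and the number of arrays limit the precision. RefSeq accessions were matched to genes of GRCm38.p6 (58.3% of probes). The array grid names an older build, so coordinates are given only for promoter entries. All members were named. Of the other lists, genes past 2-fold lower and up to 4 of the largest measured ratios past 2-fold higher (bounds where fewer were measured) were named, and genes named beyond this rule were picked with their values in view. An item of the lists is not reported here.

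Alternatives were scaling to the 75th percentile, a trimmed mean over all spots, normexp (offset 50, on median spot and background signal) with quantile normalization, loess (span 0.3), use of probes detected on both arrays alone, no filter, averaging a gene's probes, and limits of 1.5-fold and 3-fold. Scaling to the E1A control spots was added after seeing the data. Parts of the processing, not all of it, had first been tested on simulated data. Python 3.11.15, numpy 2.4.6, pandas 2.3.3, statsmodels 0.14.6, matplotlib 3.10.9, R 4.3.3 and limma 3.58.1 were used.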

Additional observations from a re-analysis of the deposited data

How the results depend on the processing

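With 1 array per genotype no array could be left out, and no depth other than signal over background bears on the values. No paired analysis was possible because each genotype had a single array. Under the 7 alternatives other than the limits of fold and the E1A scaling, the members measured on both arrays kept the sign of their ratios and their side of 2-fold. The median log2 ratio of the members moved from 0.59 to 0.97 with probes well above background on both arrays, which drops Irf5. It was also 0.97 with no filter on dim probes, which adds Irf4 at -0.97 and takes Irf5 from 0 to 1.41, so that 4 members passed 2-fold higher. Scaling to the E1A control spots, chosen after seeing the data, raised the median of all genes by 0.99 on the log2 scale, and 40.9% of genes then passed 2-fold higher. Under it the median of the members was 1.65, 5 members were past 2-fold higher, and Irf3 had 0.71, the reverse of its sign. The counts past 2-fold higher were then 14 for the activation list, 10 for interferons, receptors and JAK-STAT, 8 for the partners, 3 for the IRF5 cytokines, 2 for the IRF8 lineage and 4 for the IRF4 lineage. With a limit of 3-fold the activation list had 1, interferons, receptors and JAK-STAT 1 and the IRF4 lineage 0. With a limit of 1.5-fold the partners had 1, the IRF5 cytokines 2 and the IRF8 lineage 2. With no filter on dim probes the partners had 1, the IRF8 lineage 2 and the IRF4 lineage 2. The IRF5 cytokines had 0 with probes well above background on both arrays, since Il1b is a bound, the IRF8 lineage had 2 after loess, and interferons, receptors and JAK-STAT had 1 with the probes of a gene averaged. The other 86 values of these counts and of the median stayed within 1.5 times or within the scanner error. Scaling to the 75th percentile or to a trimmed mean over all spots raised the median of all genes by 0.10, and loess by 0.13. The cause of these shifts was not tested.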
